A study of Mus musculus with 12 samples.

Results

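The mitochondrial carriers are the genes whose symbol starts with Slc25a, together with Ucp2, Mtch1 and Mtch2. They were selected by symbol alone from the transcripts of the deposited table, and transcript values were summed per gene. The mouse annotation holds 51 such genes, of which 44 had transcripts in the table, among 13465 genes in all. The other 7 (Slc25a2, Slc25a18, Slc25a31, Slc25a41, Slc25a53, Slc25a54 and the pseudogene Slc25a5-ps) were not analysed here. The 44 genes were carried by 91 transcripts, and 21 of them had more than 1 transcript.

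Mouse renal cortex was profiled by bulk RNA sequencing, with 3 libraries in each of 4 groups. The WT sham and WT IRI groups were wild type, and the CKO sham and CKO IRI groups lacked Gpx3, which encodes an extracellular glutathione peroxidase, in renal tubular epithelial cells only. Sham animals were the uninjured controls, and IRI animals had 30 min of bilateral renal ischemia followed by 48 h of reperfusion. No source used here gives the Cre driver of the knockout, the strain, the sex or the age. The labels do not say whether libraries came from different animals, and the p-values reflect only the library-to-library spread, which may be technical. The series asks how tubular Gpx3 shapes gene expression in the injured kidney.

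Mitochondrial carriers are small membrane proteins, encoded in the nucleus, that exchange metabolites across the inner mitochondrial membrane. Each is built from repeated membrane-spanning modules, is made in the cytosol and is inserted into the membrane by the TIM22 complex. They export ATP in return for ADP, bring in phosphate, and move the dicarboxylates, amino acids, acylcarnitines, cofactors and iron on which oxidative metabolism depends. Proximal tubule cells are rich in mitochondria and draw their energy mainly from fatty acid oxidation, so they rely heavily on this traffic. A few relatives, Mtch1, Mtch2 and Slc25a46, sit in the outer membrane instead, and Slc25a17 sits in peroxisomes.

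Of the carrier genes, 3 rose after injury in both genotypes (Slc25a24, Ucp2 and Slc25a30), and Slc25a16 and Slc25a42 were among those with the largest falls in WT. Their promoters are shown to let a reader compare genes that moved in opposite directions. Each line holds the 250 bases before the transcription start, 5′ to 3′ on the strand of the gene, from RefSeq on build GRCm38.p6. Capitals mark each match to GGGCGG (the GC box) or CCAAT (the CCAAT box), read on either strand, so that a match on the other strand appears as CCGCCC or ATTGG. The windows are chr3:109122899-109123148 (+) for Slc25a24, chr7:100493108-100493357 (+) for Ucp2, chr14:75787038-75787287 (-) for Slc25a30, chr10:62920383-62920632 (+) for Slc25a16 and chr8:70212282-70212531 (-) for Slc25a42.
Slc25a24: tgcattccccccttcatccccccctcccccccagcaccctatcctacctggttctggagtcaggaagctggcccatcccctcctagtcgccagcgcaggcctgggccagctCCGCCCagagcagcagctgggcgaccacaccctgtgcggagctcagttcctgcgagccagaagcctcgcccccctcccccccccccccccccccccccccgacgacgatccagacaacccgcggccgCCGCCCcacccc
Ucp2: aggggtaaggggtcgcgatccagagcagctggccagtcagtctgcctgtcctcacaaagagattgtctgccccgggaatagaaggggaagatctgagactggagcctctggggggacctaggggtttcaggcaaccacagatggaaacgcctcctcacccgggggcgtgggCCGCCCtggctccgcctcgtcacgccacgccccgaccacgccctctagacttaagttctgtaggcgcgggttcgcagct
Slc25a30: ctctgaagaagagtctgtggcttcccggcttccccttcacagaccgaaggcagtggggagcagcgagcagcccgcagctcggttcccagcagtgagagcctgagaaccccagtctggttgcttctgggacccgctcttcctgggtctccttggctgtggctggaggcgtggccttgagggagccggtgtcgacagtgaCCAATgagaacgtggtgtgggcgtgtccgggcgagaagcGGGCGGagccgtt
Slc25a16: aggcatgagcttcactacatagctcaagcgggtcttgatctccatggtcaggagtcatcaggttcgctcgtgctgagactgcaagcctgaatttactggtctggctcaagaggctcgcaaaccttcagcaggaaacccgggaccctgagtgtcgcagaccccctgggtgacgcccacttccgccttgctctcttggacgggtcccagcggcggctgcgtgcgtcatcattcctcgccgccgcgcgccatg
Slc25a42: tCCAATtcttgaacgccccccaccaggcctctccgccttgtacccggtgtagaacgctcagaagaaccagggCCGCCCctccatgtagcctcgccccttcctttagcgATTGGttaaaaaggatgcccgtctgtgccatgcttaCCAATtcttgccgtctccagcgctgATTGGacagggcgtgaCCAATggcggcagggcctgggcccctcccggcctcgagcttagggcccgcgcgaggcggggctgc

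The promoter letters did not line up with the direction of change in these 5 genes. The promoters of Slc25a24, Ucp2 and Slc25a30 each held a GC box, and Slc25a30 also held a CCAAT box. The promoter of Slc25a42, which fell, held a GC box and several CCAAT boxes, whereas that of Slc25a16, which also fell, held neither. RefSeq windows were used for 35 of the 44 genes, 45 windows in all. Carrier windows on chromosome 18 were left out and repeated starts of a gene were merged, which was not done for the set of all windows. Windows of the same gene can overlap: by gene, 26 of the 35 had a GC box and 17 a CCAAT box. A GC box was present in 33 of the 45 carrier windows (73.33%), against 32.74% of the 32851 mouse promoter windows of the same length, and a CCAAT box in 20 (44.44%), against 33.85%. The median GC content was 57.6% in the carrier windows and 52.4% in all windows. The E-box letters CACGTG were in 7 carrier windows of 6 genes (15.56% of windows, against 6.02% of all), and TATAAA was in 1 (2.22%, against 12.37%). The NRF1 motif (0.78% of all windows) and the extended nuclear receptor half-site TNAAGGTCA (1.14%) had no match in these carrier windows, and TGANTCA, the AP-1 letters, had 2 (4.44%, against 6.75%). A match in letters is not a bound site, and no match says only that the letters are not in this window.

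Levels are read as FPKM, fragments scaled to transcript length and library total, which allows genes to be compared per length, and the libraries summed to between 391002 and 422328 FPKM at unknown read depth. Gpx3, the targeted gene, was at 5664, 4476 and 5371 FPKM in WT sham and at 2501, 3037 and 3299 in CKO sham. After injury it was at 2788, 3568 and 1075 in the libraries labelled WT IRI and at 3723, 3025 and 2779 in those labelled CKO IRI, so it did not separate the genotypes there, and all directions between the injured groups refer to the labels. The summed level of 18 proximal tubule markers was 11410 to 11600 in WT sham, and CKO sham ranged from 11900 to 12790. Most single markers went the other way: 5 of the 18 were higher and 13 lower in CKO sham, with a median log2 change of -0.22. The summed level was 2704, 2986 and 6952 in WT IRI 13, 24 and 49, and 6953, 9387 and 4326 in CKO IRI 7, 15 and 29. Hence WT IRI 49 and CKO IRI 15 stood nearest to sham in their group by this sum, and carrier calls that changed without them are given beside the result. The 13 macrophage markers in the table, of 14 listed, summed to 123 to 141 (WT sham), 157 to 235 (CKO sham), 181 to 364 (WT IRI) and 187 to 276 (CKO IRI). The 12 fibroblast markers summed to 91.7 to 101, 105 to 164, 373 to 791 and 274 to 455 in the same order. By these sums other libraries stood nearest to sham: WT IRI 24 (181) and CKO IRI 29 (187) for macrophage, WT IRI 24 (373) and CKO IRI 7 (274) for fibroblast markers. WT IRI 49 (364) and CKO IRI 15 (276) had the highest macrophage sums of their groups. In bulk tissue, fewer cells of a type and less RNA per cell cannot be told apart, and the part of these cell types in the changes below was not tested.

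The carriers spanned more than 3 orders of magnitude in level. Over the 12 libraries, 6 genes averaged more than 100 FPKM, 25 lay between 10 and 100, 11 between 1 and 10, and 2 were under 1. At the top stood the ADP/ATP carrier Slc25a5 (chrX:36795651-36798807, build GRCm38), which was at 753, 744 and 731 FPKM in WT sham and at 764, 775 and 814 in CKO sham. It was at 296, 462 and 636 in WT IRI and at 811, 876 and 608 in CKO IRI, so that every WT IRI library lay below every sham library while CKO IRI overlapped its sham group.

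**Figure D1:**
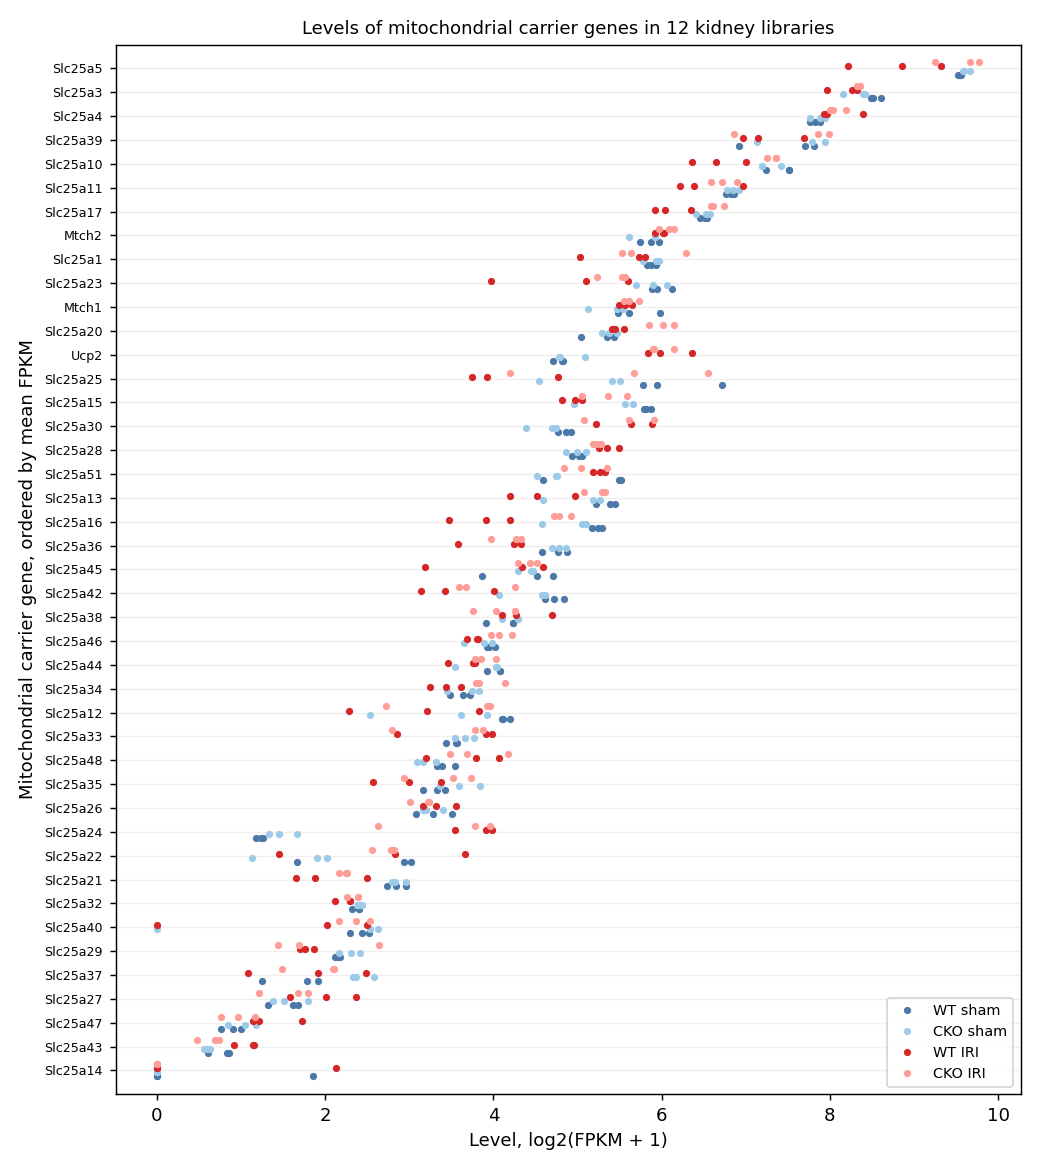
Level of the carrier genes (rows, ordered by mean FPKM) in the 12 libraries (points, coloured by group), on the scale log2(FPKM + 1). Slc25a5 is at the top in every group, Slc25a24 shows the widest separation of injured from sham libraries, and Slc25a40 and Slc25a14 have libraries listed at 0.

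Slc25a3, the phosphate carrier that supplies ATP synthase, came next, at 389, 364 and 359 FPKM in WT sham, 285, 340 and 335 in CKO sham, 307, 248 and 319 in WT IRI, and 328, 327 and 320 in CKO IRI. Slc25a4, the second ADP/ATP carrier and the main one of heart and muscle, was at 234, 217 and 225 in WT sham, 216, 244 and 235 in CKO sham, 336, 243 and 248 in WT IRI, and 254, 262 and 290 in CKO IRI. Slc25a4 was thus higher in each injured library than in every sham library of the same genotype, the opposite placement to Slc25a5 in WT. The 4 striated muscle markers in the table, of 10 listed, summed to 2.47 to 2.81 FPKM in WT sham and 4.36 to 5.57 in WT IRI. In CKO they summed to 2.98 to 3.85 in sham and 2.62 to 3.49 in IRI. Their part in the placement of Slc25a4 was not tested. The change of Slc25a4 did not pass the test (log2 0.24 ± 0.10, SE, over both genotypes, limma adjusted p = 0.0648), but it passed without WT IRI 49 (0.0424), without WT IRI 24 (0.0457) and under quantile normalization (0.031). Slc25a39, a glutathione carrier, was next at 223, 120 and 207 FPKM in WT sham, 140, 246 and 220 in CKO sham, 206, 140 and 124 in WT IRI, and 232, 115 and 253 in CKO IRI. Its libraries differed as much within groups as between them. The spread of Slc25a39 followed 1 transcript of 977 bases, which was at 0.697 to 2.78 FPKM in 4 libraries and at 62 to 137 FPKM in the other 8.

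The dicarboxylate carrier Slc25a10 and the oxoglutarate carrier Slc25a11 completed the 6 most abundant. Slc25a11, which works in the malate-aspartate shuttle, was at 113, 108 and 115 FPKM in WT sham, 108, 114 and 121 in CKO sham, 82.2, 73.3 and 125 in WT IRI, and 104, 118 and 95.5 in CKO IRI. WT IRI 13 and 24 were below all sham libraries and WT IRI 49 was above them. The change of Slc25a11 did not pass in WT (-0.30 ± 0.17, limma adjusted p = 0.201), and without WT IRI 49 it was -0.52 and passed (0.0068), as did the change over both genotypes (-0.21 with all libraries, -0.32 without that one, 0.0104). Ranks 1 to 7, with Slc25a17 as the seventh, were in the same order in each of the 4 groups by group mean. Neighbours in that order did not always differ beyond their spread: Slc25a3 and Slc25a4 had overlapping libraries after injury in WT, and Slc25a4 and Slc25a39 overlapped in both sham groups. The 6 adenine nucleotide and phosphate carriers held 53.8% of the summed carrier signal in WT sham.

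Summed over the 44 genes, carrier transcripts were at 2741 ± 108 FPKM (SD, n = 3) in WT sham, 2637 ± 148 in CKO sham, 2180 ± 209 in WT IRI and, for CKO IRI, 2769 ± 137. The sum in each WT IRI library (2045, 2073 and 2421) lay below every sham library of either genotype, where the lowest was 2466. The CKO IRI libraries (2917, 2745 and 2645) overlapped the CKO sham libraries (2466, 2725 and 2720).

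Each gene was tested with limma on log2(FPKM + 1) over the 12469 genes that passed a filter on low values, and changes are given on that scale with their SE. For the injury contrasts and the interaction that SE comes from a spread shared by the 4 groups, not from a single genotype. Of the 44 carriers 42 passed the filter; Slc25a43 and Slc25a14 did not. In WT, 4 of the 42 rose after injury and 12 fell at an adjusted p under 0.05. Among all genes tested in that comparison, 37% changed: 25.1% rose and 11.9% fell. The median change of the 42 was -0.20, against 0.12 for all genes. In CKO, where 7.19% of all genes changed, 4 of the 42 rose and 0 fell, against 5.7% and 1.48% of all genes, and the median was 0.01, against 0.08. At an unadjusted p under 0.05, 6 were higher and 3 lower in CKO, near the 16.4% and 7.62% of all genes. Over both genotypes, where 37.4% of all genes changed, 5 rose and 7 fell (25.6% and 11.8% of all genes), with a median of -0.14 against 0.10. Under quantile normalization or trimmed-mean scaling the median of all genes in WT moved from 0.12 to -0.02 and -0.01, and the split of all calls from 3125 up and 1483 down to 2205 and 2172 (17.7% and 17.4% of the genes) or 2238 and 2228 (18% and 17.9%), so rises of that size depend on the scaling.

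**Figure D2:**
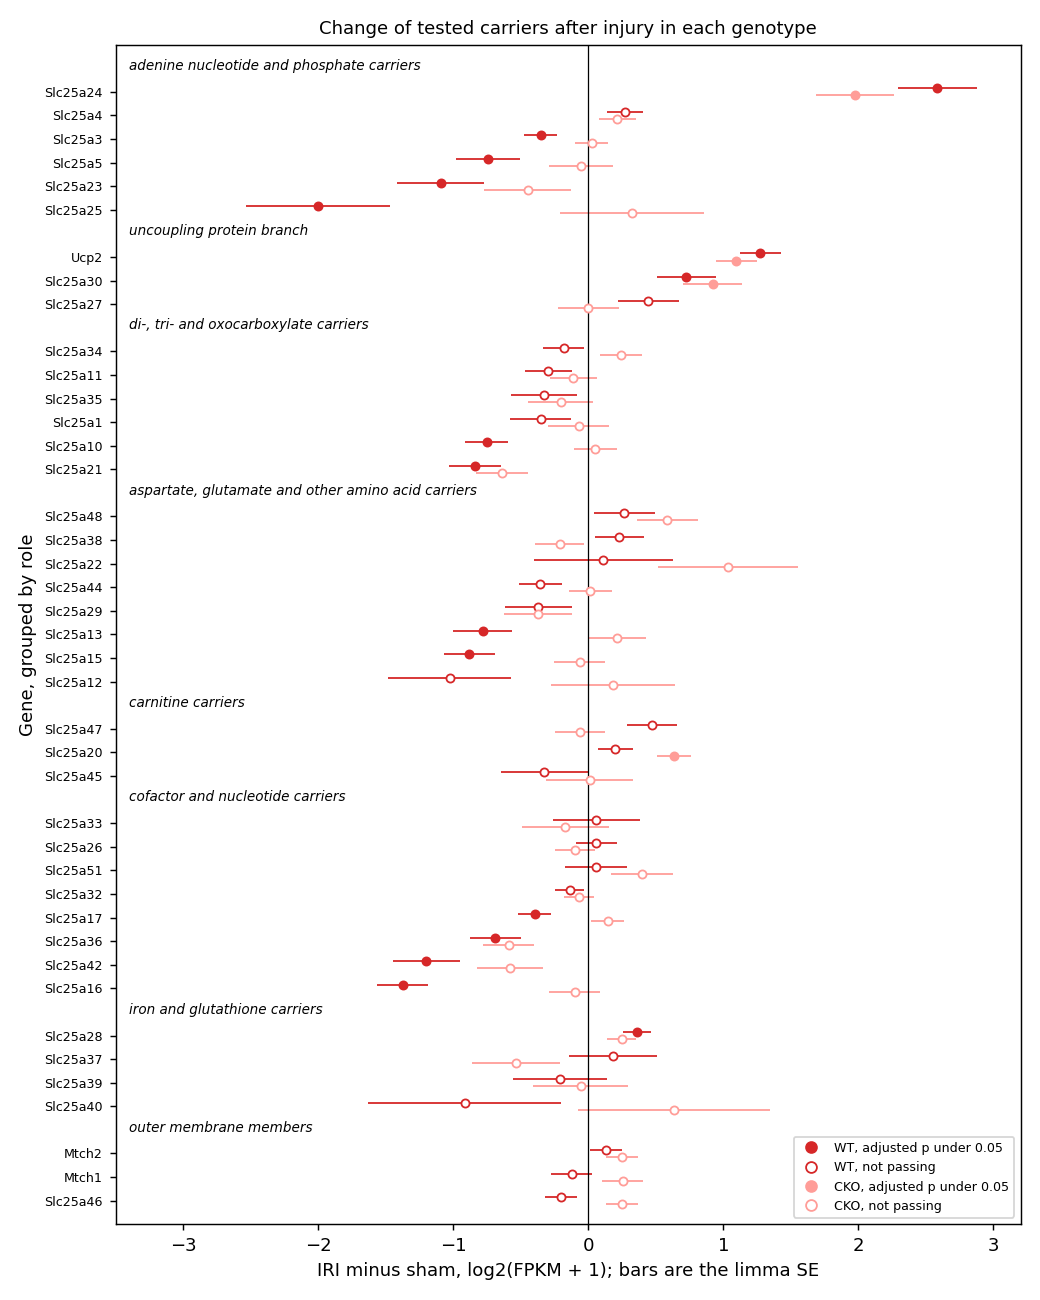
Change of the tested carriers from sham to IRI (x axis, difference in log2(FPKM + 1), bars are the limma SE), in WT (dark) and CKO (light), grouped by role; filled points have an adjusted p under 0.05. Filled points left of 0 are all WT, and Slc25a24, Ucp2 and Slc25a30 are filled to the right of 0 in both genotypes.

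Members of the uncoupling protein branch rose in both genotypes. These carriers resemble the uncoupling protein of brown fat, and 3 of the 4 were tested. Of these, 2 rose in WT and the same 2 in CKO, against 25.1% and 5.7% of all genes. As few genes passed in CKO, 0 calls there in a small role group does not set the genotypes apart. Ucp2, which exports carbon compounds from the matrix and lowers the membrane potential in some settings, was at 27.4, 25.2 and 27.1 FPKM in WT sham and at 33.1, 26.6 and 26.5 in CKO sham. It was at 62.1, 81.1 and 56.0 in WT IRI and at 69.6, 59.2 and 58.5 in CKO IRI, with every injured library above every sham library. Ucp2 rose by 1.27 ± 0.15 in WT (limma adjusted p = 0.000262) and by 1.10 ± 0.15 in CKO (0.00152).

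Slc25a30, known as kidney mitochondrial carrier protein 1 for its abundance in this organ, was at 29.4, 28.1 and 26.3 FPKM in WT sham, 20.0, 25.9 and 24.9 in CKO sham, 48.5, 57.9 and 36.4 in WT IRI, and 58.9, 32.8 and 48.1 in CKO IRI. Injured and sham libraries did not overlap. The change of Slc25a30 was 0.82 ± 0.15 over both genotypes (limma adjusted p = 0.00236), 0.72 ± 0.22 in WT (0.0245) and 0.92 ± 0.22 in CKO (0.0306). The call over both genotypes held under each of the 22 alternatives, but the call within a genotype was lost in 6 of 17 alternatives in WT (adjusted p up to 0.0846) and in 6 of 17 in CKO (up to 0.107). Slc25a27, the neuronal uncoupling protein 4, stood at 1.93 ± 0.38 FPKM in WT sham and 3.06 ± 1.08 in WT IRI and did not pass (0.44 ± 0.23, limma adjusted p = 0.144). It passed as higher in WT without WT IRI 49 (0.65, adjusted p = 0.0388), without WT IRI 49 and CKO IRI 15 together (0.0448) and with array weights, which give noisy libraries less influence (0.0383). Slc25a14 was listed at 0 in 10 of the 12 libraries and at 2.62 and 3.37 FPKM in WT sham 3 and WT IRI 49.

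Slc25a24 had the largest rise of the carriers. It is one of the calcium-sensing carriers that exchange ATP-Mg for phosphate and so set the adenine nucleotide pool of the matrix, and it lies at chr3:109123149-109168457. Its level was 1.41, 1.26 and 1.36 FPKM in WT sham, 2.17, 1.53 and 1.73 in CKO sham, 14.0, 14.9 and 10.7 in WT IRI, and 12.8, 5.20 and 14.6 in CKO IRI. The injured libraries all lay above the sham libraries, and the lowest of them was CKO IRI 15. Slc25a24 rose by 2.58 ± 0.29 in WT (limma adjusted p = 0.000196) and by 1.97 ± 0.29 in CKO (0.0025), and both calls held under each of 17 alternatives.

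Its paralogs with the same activity moved the other way in WT. Slc25a23 was at 57.9, 60.6 and 68.8 FPKM in WT sham, 50.8, 58.8 and 66.1 in CKO sham, 14.7, 33.3 and 47.7 in WT IRI, and 45.2, 46.3 and 36.5 in CKO IRI. Every injured library was below every sham library of its genotype. Slc25a23 fell in WT by 1.09 ± 0.32 (limma adjusted p = 0.0227), and the change of -0.45 in CKO did not pass. Leaving out WT sham 2 or WT sham 3 took the WT call to adjusted p = 0.0564 and 0.0718, and fitting only the compared groups to 0.0774.

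Slc25a25, the third of these paralogs, was at 53.7, 60.8 and 104 FPKM in WT sham, 41.5, 44.4 and 22.4 in CKO sham, 26.2, 12.4 and 14.2 in WT IRI, and 92.8, 49.9 and 17.4 in CKO IRI. The WT groups did not overlap, and the CKO IRI libraries spanned a wider range than any other group. Slc25a25 fell in WT by 2.00 ± 0.53 (limma adjusted p = 0.0146). The size of this fall depended on how transcripts were combined: for the transcript of highest mean alone it was -0.997 with an adjusted p of 0.479. The call was also lost without WT sham 3 (0.0585). Its transcript of 3529 bases was at 27.8 FPKM in CKO sham 1 and at most 0.203 in any other library, and its transcript of 3278 bases was listed at 0 in CKO sham 1.

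Slc25a5 fell in WT by 0.74 ± 0.24 (limma adjusted p = 0.0304) and was at -0.05 in CKO. Over both genotypes its change of -0.40 did not pass (0.0826), and without WT IRI 49 it was -0.53 and passed (0.0107). Slc25a3 fell in WT by 0.35 ± 0.12 (adjusted p = 0.0435). Both calls lay near the threshold: Slc25a5 lost it in 6 of 17 alternatives (adjusted p 0.0564 to 0.082) and Slc25a3 in 5 (0.0872 to 0.14). Slc25a5 has processed pseudogene copies and a close paralog, so reads can be split between near-identical sequences in a way that the table does not show.

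**Figure D3:**
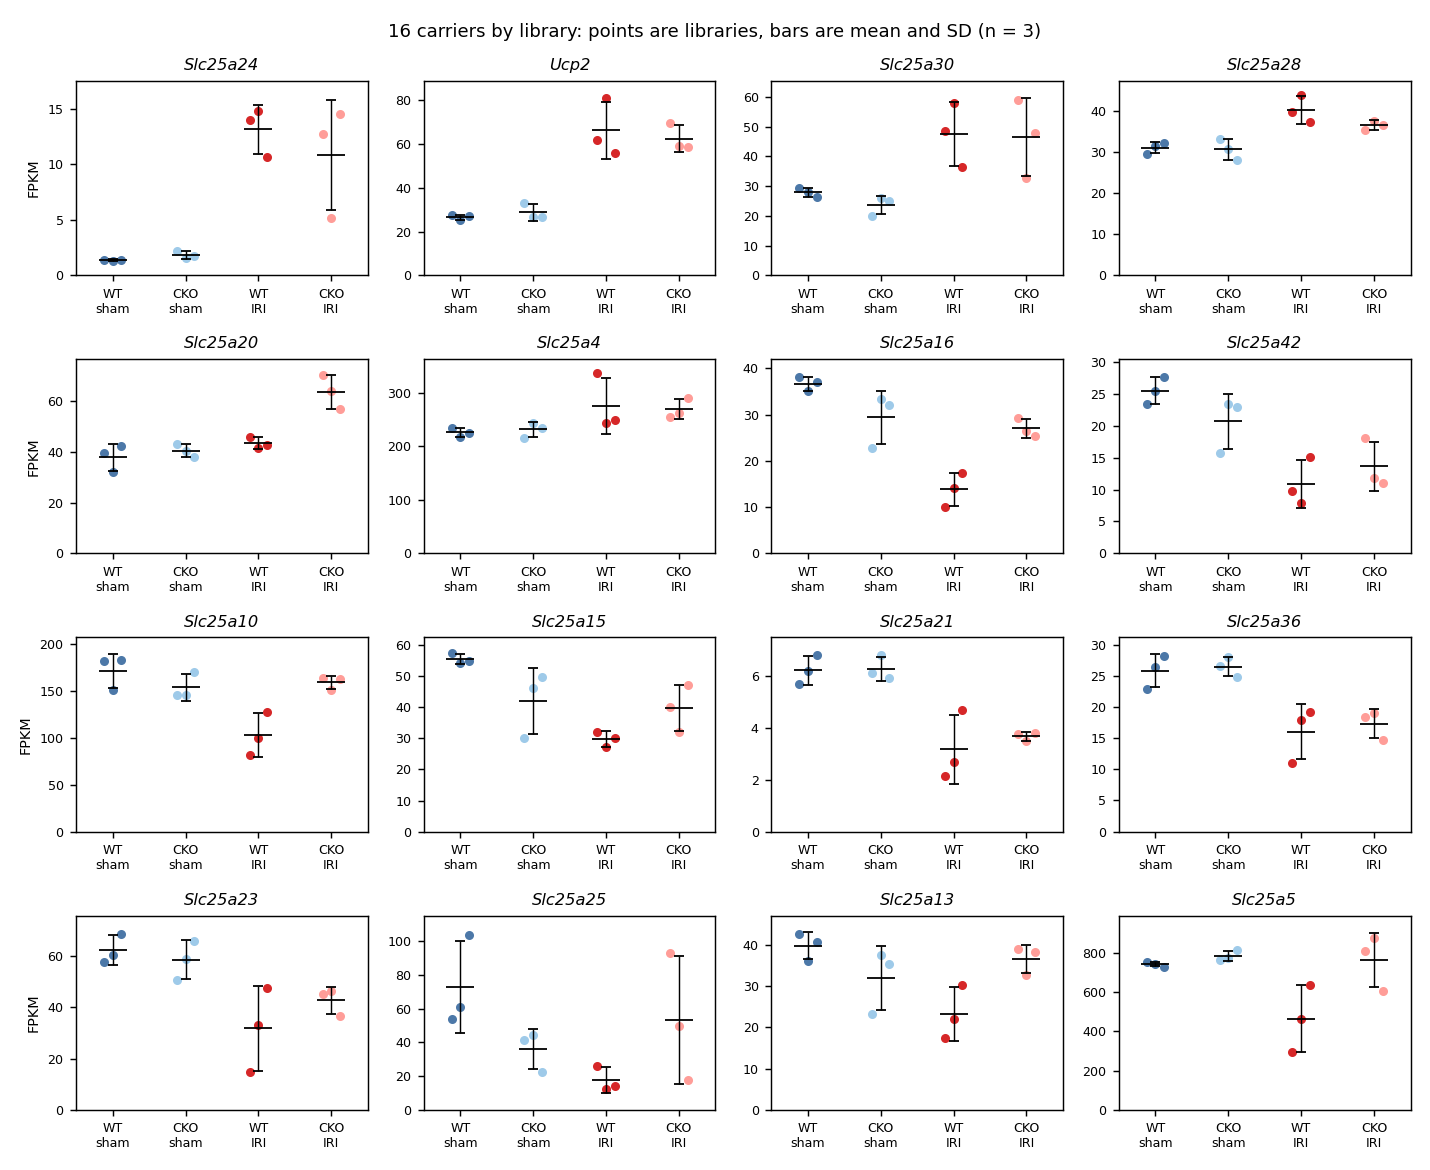
FPKM of 16 carriers in each library (points), with the mean and SD of each group (bars, n = 3); the y axes start at 0 and differ between panels. Ucp2 and Slc25a24 separate all injured from all sham libraries, whereas Slc25a16, Slc25a10 and Slc25a13 are low in the WT IRI libraries while their CKO IRI libraries overlap CKO sham.

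The ratio of paralogs within a library is free of a common scale factor. The pairs were chosen after the values were seen, and with 3 libraries against 3 the exact permutation test cannot give a p below 0.1. Ratios were also taken of Slc25a13 to Slc25a12, Slc25a28 to Slc25a37, Slc25a36 to Slc25a33 and Ucp2 to Slc25a30. In that order their exact permutation p was 0.9, 0.8, 0.4 and 0.1 in WT and 0.8, 0.1, 0.4 and 0.5 in CKO. Slc25a5 exceeded Slc25a4 by 3.21, 3.43 and 3.25 times in WT sham and by 3.54, 3.17 and 3.47 times in CKO sham. The ratio was 0.881, 1.90 and 2.56 in WT IRI, below all sham libraries, and 3.19, 3.34 and 2.09 in CKO IRI, where 2 of the 3 libraries lay within the sham range. The difference in log2 ratio was -1.02 in WT (exact permutation p = 0.1, two-sided) and -0.27 in CKO (exact p = 0.3). In WT IRI 13 the usual order of the 2 ADP/ATP carriers was inverted.

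The ratio of Slc25a24 to Slc25a23 was 0.0243, 0.0208 and 0.0198 in WT sham and 0.0428, 0.026 and 0.0262 in CKO sham. It was 0.954, 0.447 and 0.224 in WT IRI and 0.282, 0.112 and 0.399 in CKO IRI. The 2 paralogs therefore came close to parity in WT IRI 13. The log2 ratio differed from sham by 4.41 in WT and 2.92 in CKO (exact permutation p = 0.1 in each, two-sided), with no overlap of libraries.

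**Figure D4:**
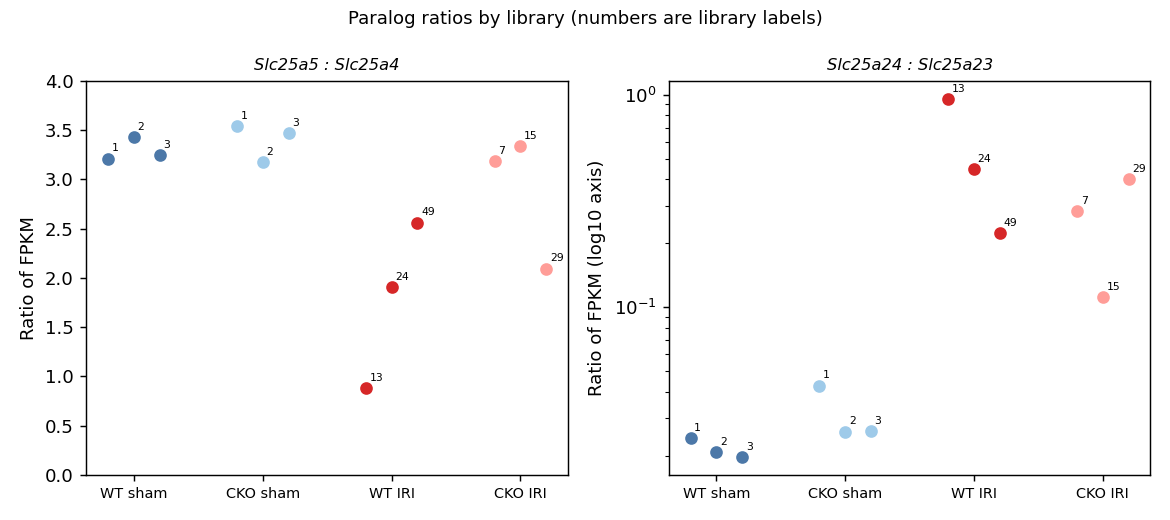
Ratio of FPKM between paralogs in each library (points, labelled with the library number), for the ADP/ATP carriers Slc25a5 and Slc25a4 (left, linear axis) and the ATP-Mg/phosphate carriers Slc25a24 and Slc25a23 (right, log10 axis). The left ratio is below the sham range in the 3 WT IRI libraries and in CKO IRI 29, and the right ratio is above it in all 6 injured libraries.

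Of the 6 di-, tri- and oxocarboxylate carriers, 0 rose and 2 fell in WT (25.1% and 11.9% of all genes), and 0 changed in CKO (7.19%). Slc25a10 exchanges malate and succinate for phosphate and feeds gluconeogenesis, a proximal tubule task. It was at 181, 151 and 182 FPKM in WT sham, 146, 145 and 170 in CKO sham, 81.4, 99.5 and 127 in WT IRI, and 163, 151 and 163 in CKO IRI. WT IRI libraries lay below all others. Slc25a10 fell in WT by 0.75 ± 0.16 (limma adjusted p = 0.00499), a call that held in each of 17 alternatives, and its CKO change was 0.05. Over both genotypes it fell by 0.35 ± 0.11 (0.031), a call lost in 7 alternatives, among them without CKO IRI 15 (0.0571).

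Slc25a21 carries 2-oxoadipate and 2-oxoglutarate in lysine and tryptophan breakdown. It was at 5.68, 6.19 and 6.80 FPKM in WT sham, 6.11, 6.81 and 5.94 in CKO sham, 2.14, 2.69 and 4.67 in WT IRI, and 3.75, 3.48 and 3.80 in CKO IRI. The injured libraries of both genotypes lay below all sham libraries. Slc25a21 fell by 0.84 ± 0.19 in WT (limma adjusted p = 0.00715) and by 0.74 ± 0.13 over both genotypes (0.00204). In CKO the change was -0.64 ± 0.19 with an adjusted p of 0.0691, and it passed under 5 of the alternatives (0.0037 to 0.048). The citrate carrier Slc25a1, which supplies cytosolic acetyl-CoA, was at 57.8 ± 2.41 FPKM in WT sham and 46.3 ± 12.7 in WT IRI and did not pass. Of Slc25a34 and Slc25a35, whose substrates are less settled, neither passed in any injury comparison, but Slc25a35 passed as lower over both genotypes without WT IRI 49 and CKO IRI 15 (-0.45, limma adjusted p = 0.0458).

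Among the 8 tested carriers of aspartate, glutamate and other amino acids, 2 fell in WT (11.9% of all genes) and 0 changed in CKO (7.19%). Slc25a15 brings ornithine into the matrix for the urea cycle and arginine metabolism. It was at 57.5, 54.4 and 55.1 FPKM in WT sham, 30.1, 46.4 and 49.7 in CKO sham, 32.1, 27.2 and 30.3 in WT IRI, and 40.0, 32.1 and 47.1 in CKO IRI. The WT groups were widely apart, and CKO sham 1 was close to the injured libraries. Slc25a15 fell by 0.88 ± 0.19 in WT (limma adjusted p = 0.00551) and was at -0.06 in CKO.

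Slc25a13, or citrin, exchanges mitochondrial aspartate for cytosolic glutamate in the malate-aspartate shuttle. It was at 42.6, 36.1 and 40.7 FPKM in WT sham, 23.2, 37.6 and 35.4 in CKO sham, 17.4, 22.0 and 30.4 in WT IRI, and 39.0, 32.7 and 38.2 in CKO IRI. WT IRI lay below WT sham, while CKO IRI overlapped CKO sham. Slc25a13 fell in WT by 0.78 ± 0.22 (limma adjusted p = 0.0168), with the call lost in 4 of 17 alternatives (adjusted p up to 0.131). Over both genotypes the change of -0.29 did not pass (0.163), and without WT IRI 49 it was -0.39 and passed (0.0431). Its paralog Slc25a12 was at 16.6 ± 0.63 FPKM in WT sham and 8.46 ± 4.67 in WT IRI, a change of -1.03 ± 0.46 that did not pass (adjusted p = 0.1), and it passed without WT IRI 49 (0.0378). Slc25a48, a choline carrier placed with this group here, was at 9.73 ± 0.84 FPKM in WT sham and 12.3 ± 3.84 in WT IRI, and at 8.17 ± 0.75 and 13 ± 3.56 in CKO. Its change of 0.43 over both genotypes had an adjusted p of 0.0575, and without WT IRI 49 it was 0.55 and passed (0.00801). Slc25a29, which carries basic amino acids, was at -0.37 over both genotypes (adjusted p = 0.119). Without CKO IRI 15 that change was -0.55 and passed (0.00181), as did the change in CKO (-0.73, 0.00988), and without WT IRI 49 and CKO IRI 15 together the change of Slc25a29 in WT passed as well (-0.42, 0.0363).

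Of the cofactor and nucleotide carriers, 4 of 9 fell in WT (11.9% of all genes), and 0 changed in CKO (7.19%). Slc25a16, implicated in coenzyme A supply to the matrix, had the smallest p among the carriers that fell in WT. It was at 38.1, 35.1 and 37.0 FPKM in WT sham, 22.8, 33.3 and 32.1 in CKO sham, 10.1, 14.1 and 17.3 in WT IRI, and 29.4, 26.4 and 25.4 in CKO IRI. The WT IRI libraries lay below all other libraries, and the CKO IRI libraries lay within the range of CKO sham. Slc25a16 fell by 1.38 ± 0.19 in WT (limma adjusted p = 0.000615) and was at -0.10 in CKO.

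Slc25a42 brings coenzyme A into the matrix in exchange for adenine nucleotides. It was at 23.4, 25.5 and 27.7 FPKM in WT sham, 15.7, 23.4 and 23.0 in CKO sham, 9.73, 7.85 and 15.1 in WT IRI, and 18.1, 11.8 and 11.1 in CKO IRI. WT groups did not overlap, and in CKO 2 of the 3 injured libraries lay below the lowest sham library. Slc25a42 fell by 1.20 ± 0.25 in WT (limma adjusted p = 0.00452) and by 0.89 ± 0.17 over both genotypes (0.00306), and its change of -0.58 in CKO did not pass (0.18).

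Slc25a36, which moves pyrimidine nucleotides, was at 23.0, 26.4 and 28.2 FPKM in WT sham, 26.6, 28.0 and 24.9 in CKO sham, 11, 17.9 and 19.2 in WT IRI, and 18.3, 19.1 and 14.6 in CKO IRI. Injured and sham libraries did not overlap in either genotype. Slc25a36 fell by 0.69 ± 0.19 in WT (limma adjusted p = 0.0169), the CKO change was -0.59 ± 0.19 (0.0876), and over both genotypes it fell by 0.64 ± 0.13 (0.00432). The WT call was lost in 4 of 17 alternatives (0.0532 to 0.107). Slc25a17, the peroxisomal carrier of coenzyme A, FAD and NAD, fell in WT by 0.40 ± 0.12 (adjusted p = 0.027), a call lost in 6 of 17 alternatives (up to 0.0837), and was at 0.14 ± 0.12 in CKO, which did not pass. Slc25a26, the S-adenosylmethionine carrier, Slc25a32 for folate, Slc25a33 for pyrimidine nucleotides and Slc25a51 for NAD did not pass in either genotype. Under quantile normalization, Slc25a32 passed as lower in WT (-0.33, limma adjusted p = 0.0499) and over both genotypes (-0.26, 0.0303).

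Of the 3 genes grouped here as carnitine carriers, 0 changed in WT (37% of all genes) and 1 rose in CKO (5.7%). Slc25a20 brings acylcarnitines into the matrix for fatty acid oxidation. It was at 39.7, 32.0 and 42.2 FPKM in WT sham, 43.2, 40.4 and 38.1 in CKO sham, 46.0, 41.7 and 42.8 in WT IRI, and 70.2, 63.9 and 56.9 in CKO IRI. The CKO IRI libraries lay above all 9 others. The 5 adipocyte markers in the table, of 11 listed, summed to 882.5, 902.4 and 746.3 FPKM in CKO sham. They summed to 1416, 1371 and 712.4 in CKO IRI, to 891.8, 776.6 and 1103 in WT sham, and to 962.8, 429.1 and 465.8 in WT IRI. The part of these markers in the placement of Slc25a20 was not tested. Slc25a20 rose by 0.63 ± 0.13 in CKO (limma adjusted p = 0.0142) and by 0.42 ± 0.09 over both genotypes (0.00499), and its WT change of 0.20 did not pass. The CKO call was lost without CKO sham 2 (adjusted p = 0.0569), without CKO sham 3 (0.0699) and without CKO IRI 7 (0.0657). Slc25a45 and Slc25a47, of less settled substrate, did not pass, and Slc25a47 was at 0.86 ± 0.15 FPKM in WT sham and 1.62 ± 0.61 in WT IRI. With array weights, Slc25a47 passed as higher in WT (0.65, limma adjusted p = 0.0111) and over both genotypes (0.33, 0.0297).

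In the iron and glutathione group, 1 of 4 rose in WT (25.1% of all genes) and 0 changed in CKO (7.19%). Slc25a28, or mitoferrin 2, imports iron in tissues other than the red cell lineage. It was at 29.6, 31.5 and 32.2 FPKM in WT sham, 33.2, 30.9 and 28.1 in CKO sham, 39.8, 44 and 37.3 in WT IRI, and 35.4, 37.7 and 36.7 in CKO IRI. All injured libraries lay above all sham libraries. Slc25a28 rose by 0.36 ± 0.10 in WT (limma adjusted p = 0.021), and its CKO change of 0.25 had an adjusted p of 0.18. The WT call was lost in 5 of 17 alternatives: under quantile normalization (0.0885), under trimmed-mean scaling (0.146), and without WT sham 1 (0.08), WT sham 2 (0.0586) or WT IRI 24 (0.0691). Slc25a40, the second glutathione carrier, was listed at 0 in CKO sham 3 and WT IRI 24 and at 3.07 to 5.20 FPKM elsewhere.

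Among the outer membrane relatives, 0 of 3 passed in either genotype, against 37% of all genes in WT and 7.19% in CKO. Mtch2, which inserts proteins into the outer membrane, was at 57.1 ± 4.52 FPKM in WT sham, 55.7 ± 6.77 in CKO sham, 62.6 ± 2.76 in WT IRI and, for CKO IRI, 66.2 ± 4.18. Mtch1 was at 51.3 ± 9.59, 40.8 ± 6.20, 46.5 ± 2.55 and 48.7 ± 3.32 in the same order. None passed over both genotypes either, but Slc25a46, which takes part in mitochondrial fission, passed as lower in WT under quantile normalization (-0.33, adjusted p = 0.0354) and trimmed-mean scaling (-0.35, 0.0392).

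The placement of libraries gives a reading without a model. In WT, 6 carriers were higher and 18 lower in every injured than in every sham library, while 35.2% and 19.5% of all genes were so placed. In CKO, 12 were higher and 4 lower, against 21.4% and 10.1% of all genes. The 18 lower in WT included Slc25a1, Slc25a12, Slc25a29, Slc25a32, Slc25a44 and Slc25a46, which did not pass the test. Slc25a44 passed as lower in WT under quantile normalization (-0.49, limma adjusted p = 0.0271) and trimmed-mean scaling (-0.51, 0.0307). The 4 lower in CKO were Slc25a21, Slc25a23, Slc25a36 and Slc25a37. With both genotypes together, the 6 injured libraries lay above the 6 sham libraries for Slc25a24, Slc25a28, Slc25a30 and Ucp2, against 12.7% of all genes, and below them for Slc25a21, Slc25a23 and Slc25a36, against 4.11%.

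Without injury, 0 of the 42 carriers differed between CKO and WT by limma fitted to the 6 sham libraries, where 0.0882% of all genes passed (0.0561% higher and 0.0321% lower). At an unadjusted p under 0.05, 1 carrier was higher and 1 lower, where 9.46% and 6.74% of all genes were. Slc25a37, or mitoferrin 1, the iron importer of the red cell lineage, was at 2.78, 1.37 and 2.44 FPKM in WT sham and at 4.99, 4.15 and 4.05 in CKO sham, with no overlap (log2 0.78 ± 0.19, adjusted p = 0.24). The 7 erythroid markers in the table summed to 365, 124 and 296 in WT sham and to 743, 481 and 177 in CKO sham, and their part in this difference was not tested.

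Slc25a24 was the next higher carrier in CKO sham (0.26 ± 0.11, limma adjusted p = 0.319). The lower ones of smallest p were Slc25a25 (-0.99 ± 0.34, adjusted p = 0.275) and Slc25a3 (-0.21 ± 0.09, 0.311). All 4 had groups that did not overlap, as did 3 carriers higher and 7 lower in CKO sham in all, against 15% and 13.4% of all genes. CKO sham 1 was the lowest CKO sham library for some carriers, among them Slc25a3, Slc25a13, Slc25a15, Slc25a16, Slc25a23, Slc25a30 and Slc25a42. For others it was the highest, among them Slc25a17, Slc25a20, Slc25a24, Slc25a28, Slc25a37 and Ucp2. The median SD of the carriers was 0.17 (log2) in CKO sham, against 0.11 in WT sham.

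After injury, 0 of the 42 carriers differed between the libraries labelled CKO IRI and WT IRI by limma fitted to those 6 libraries, where 0% of all genes passed. At an unadjusted p under 0.05, 7 carriers were higher in CKO IRI and 0 lower, against 494 and 808 of the 12469 genes (3.96% and 6.48%). The median difference was 0.19, against -0.05 for all genes. Groups did not overlap for 9 carriers, all higher in CKO IRI, where 7.11% of all genes were so placed. The carriers of smallest p were Slc25a16 (0.95 ± 0.22, adjusted p = 0.476) and Slc25a20 (0.54 ± 0.15, 0.476), whose values stand above. The lower ones were Slc25a47 (-0.40 ± 0.23, 0.519), at 1.21, 2.32 and 1.32 FPKM in WT IRI and 0.956, 1.25 and 0.693 in CKO IRI, and Slc25a27 (-0.42 ± 0.27, 0.545), at 3.02, 4.15 and 1.99 in WT IRI and 2.47, 2.19 and 1.33 in CKO IRI.

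This outcome changed in a setting that gave noisy libraries less weight and also brought the sham libraries into the fit. Sham libraries varied less, and in simulation a spread shared with them gave too many false calls for this contrast. With that shared spread but no weights, 3 of all genes tested were higher and 2 lower in CKO IRI, none of them carriers. With limma's array weights over all 12 libraries, Slc25a5, Slc25a10, Slc25a16, Slc25a17, Slc25a20 and Slc25a34 passed as higher in CKO IRI (adjusted p 0.0255 to 0.0454), 6 of 42 carriers against 2.57% of all genes. The summed proximal tubule markers also differed between these libraries, at 2704 to 6952 in WT IRI against 4326 to 9387 in CKO IRI, and their part in the carrier differences was not tested. The injury marker Havcr1 was at 370, 348 and 276 FPKM in WT IRI and at 228, 90.6 and 408 in CKO IRI. WT IRI 13 was the lowest injured library for Slc25a5, Slc25a10, Slc25a13, Slc25a16, Slc25a17, Slc25a21, Slc25a23 and Slc25a36, and WT IRI 49 was the highest WT IRI library for each of them.

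The difference between the genotypes' injury responses was tested as an interaction over the 12 libraries, which shares its libraries with the comparisons above. By limma 0 of the 42 carriers passed, where 0.016% of all genes did (0.00802% in each direction). At an unadjusted p under 0.05, 8 lay above 0, meaning a less negative or more positive response in CKO, and 0 below, where 7.26% of all genes lay above and 10.7% below. The median was 0.30, against -0.06 for all genes. The carriers of smallest p above 0 were Slc25a16 (1.27 ± 0.27, adjusted p = 0.176) and Slc25a10 (0.80 ± 0.22, 0.188), and those below 0 were Slc25a47 (-0.53 ± 0.26, 0.305) and Slc25a38 (-0.44 ± 0.26, 0.372). Slc25a38, a glycine carrier needed for heme synthesis, was at 17.9, 17.8 and 14.1 FPKM in WT sham, 18.6, 16.1 and 18.6 in CKO sham, 25.0, 16.2 and 18.3 in WT IRI, and 12.5, 15.4 and 18.2 in CKO IRI.

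Without WT IRI 49, the interaction passed for Slc25a10, Slc25a13, Slc25a16 and Slc25a17 (adjusted p 0.0272 to 0.0458), 4 of 42 against 2.5% of all genes. Without both WT IRI 49 and CKO IRI 15 it passed for Slc25a10 (0.047) and Slc25a16 (0.0409), against 0.982% of all genes. With array weights 5 passed, the same 4 and Slc25a25, against 2.78%. Without WT IRI 13, in turn, the interaction of Slc25a16 was 1.08 with 0 of the 42 carriers passing. A difference between the genotypes in the injury response of the carriers was therefore not detected by the stated test, and it was called only in these settings.

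Genes that work with the carriers were taken from lists chosen with earlier results in view. The shares of all genes to read them against are 25.1% up and 11.9% down in WT and 5.7% and 1.48% in CKO. In WT, 6 of 16 tested genes of the TOM and TIM22 route that imports carriers rose and 1 fell, with a median of 0.42. Tomm40, the import pore, rose by 0.94 ± 0.18 (limma adjusted p = 0.00293), Tomm22 by 0.64 ± 0.14 (0.00499) and Timm13, a chaperone of the space between the membranes, by 0.75 ± 0.17 (0.00787). Timm29, a TIM22 subunit, fell by 0.67 ± 0.14 (0.005). In CKO 1 rose, Tomm70a, a receptor for carrier precursors (0.45 ± 0.12, adjusted p = 0.0419), and 0 fell. Under quantile normalization or trimmed-mean scaling, 5 of the 16 rose and 2 fell in WT, against 17.7% and 17.4% of all genes under the first and 18% and 17.9% under the second. In CKO 0 of the 16 changed, against 4.12% up and 2.37% down, or 4.66% and 2.06%.

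Of 24 genes of the TCA cycle and malate-aspartate shuttle, 1 rose and 14 fell in WT, with a median of -0.61. Pcx, pyruvate carboxylase, was at 174 FPKM in WT sham and 53.2 in WT IRI and fell by 1.72 ± 0.28 (limma adjusted p = 0.00155). Dld, Sucla2 and Suclg1 fell by 0.78, 1.04 and 0.71. In CKO 1 of the 24, the aspartate aminotransferase Got1, rose (0.79 ± 0.17, adjusted p = 0.0227), and 0 fell. In WT, 17 of the 24 fell under trimmed-mean scaling and 13 under quantile normalization, against 17.9% and 17.4% of all genes. Without WT IRI 49 and CKO IRI 15 together, 2 of the 24 fell in CKO, against 5.49% of all genes. Of 9 carnitine shuttle genes, 1 rose and 6 fell in WT, with a median of -1.03. Among them the plasma membrane carnitine transporter Slc22a5 fell by 1.17 ± 0.19 (adjusted p = 0.00141), Crot by 1.21 ± 0.23 (0.00335) and Cpt1a by 0.80 ± 0.18 (0.00685), and Acsl5 rose. In CKO 2 rose, Acsl5 (0.55 ± 0.11, adjusted p = 0.016) and Acsl4 (1.22 ± 0.29, 0.0302). Slc25a20, which works between these enzymes, was at 0.20 in WT and did not pass.

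Among 23 other mitochondrial channels and transporters, 3 rose and 6 fell in WT, and 0 changed in CKO. Mcub, which dampens the calcium uniporter, rose by 1.44 ± 0.23 (limma adjusted p = 0.00144) from 0.69 to 3.65 FPKM, and Mcur1, a uniporter regulator, fell by 0.89 ± 0.12 (0.00055). Mpc1, a subunit of the mitochondrial pyruvate carrier, fell by 1.05 ± 0.23 (0.00618), from 144 to 72.6 FPKM. Of 23 iron-sulfur cluster and heme genes, 0 rose and 4 fell in WT, led by the cysteine desulfurase Nfs1 (-0.84 ± 0.14, adjusted p = 0.00191). Of 17 ATP synthase genes, 0 rose and 2 fell in WT, Atp5b by 1.09 ± 0.24 (0.00589) and Atp5a1 by 0.65 ± 0.17 (0.0138). In CKO, 0 of both lists changed. Trimmed-mean scaling, under which 18% of all genes rose and 17.9% fell, moved the counts in WT to 1 up and 11 down for the channels and transporters, 0 and 6 for the iron-sulfur and heme genes, and 0 and 3 for the ATP synthase genes, and 4 of the last fell without WT IRI 49 and CKO IRI 15, against 16.2% of all genes.

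The carrier genes are spread over 19 chromosomes, with 5 on chromosome 11. The closest pair is Slc25a29 and Slc25a47, on opposite strands of chromosome 12, whose outermost annotated ends in GENCODE lie 162 bases apart. Their RefSeq promoter windows lay further apart, at chr12:108835877-108836126 for Slc25a29 and chr12:108850879-108851128 for Slc25a47. Slc25a47 was near the filter limit and reached 1 FPKM in only 6 of the 12 libraries. Their WT libraries were placed in opposite directions: Slc25a29 was at 3.44 ± 0.10 FPKM in WT sham and 2.43 ± 0.20 in WT IRI, while Slc25a47 was higher in each WT IRI than in each WT sham library. Slc25a43, a carrier of unassigned substrate 18448 bases from the abundant Slc25a5 on the X chromosome, was at 0.71 ± 0.16 FPKM in WT sham and 1.11 ± 0.19 in WT IRI, and at 0.51 ± 0.03 and 0.56 ± 0.14 in CKO.

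The spread between libraries differed among the groups. The median SD of the 42 carriers was 0.11 in WT sham, 0.17 in CKO sham, 0.33 in WT IRI and, for CKO IRI, 0.19, on the log2 scale, against 0.10, 0.17, 0.27 and 0.23 for all genes.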

How the data were processed

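The members and gene lists were chosen with earlier results of these data known. Reads were processed with cutadapt, HISAT2 2.1.0 and StringTie, per the submitters' processing notes, which name build GRCh38 although the transcript identifiers are mouse. The authors deposited 1 table of 25790 transcripts in 12 libraries, read here as FPKM; the header names no unit, and TPM would differ by 1 factor per library. In every row at least 1 group mean was 0.5 or more. Joint capsule is named in the extraction protocol, per the labels, whereas the tissue is given as kidney. Strand-marked libraries were made with dUTP, per the labels' protocols, and no strand setting of the counting is given in the sources used here.

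Identifiers were matched to GENCODE M21 (25740 matched; the 50 others held at most 0.10% of a library) and summed per gene. limma 3.58.1 in R 4.3.3 was fitted with a mean-variance trend to log2(FPKM + 1) of the 12469 genes that reached 1 FPKM in 3 or more libraries. Injury contrasts and the interaction used all 12 libraries, and genotype contrasts only the 6 compared. Benjamini-Hochberg adjustment was over all genes, two-sided, at 0.05. The model was tested on simulated data. Values in every library are given for the 6 most abundant carriers, for up to 8 rises and 8 falls per contrast and, where fewer than 4 passed, for the 2 of smallest p in each direction; of other carriers up to 4 per role, and of related lists up to 4 per contrast, are named. Examples of transcripts, paralog ratios and neighbouring genes were chosen after their values were seen. Alternatives were pseudocounts of 0.1 and 0.5, no filter or a filter of at least 5, other scalings, 1 transcript per gene, array weights, fits of the compared groups only, and leaving out each library. Leaving out WT IRI 49 and CKO IRI 15 together was added after seeing the data. A carrier that the rule selects stays in the counts but is not reported here by name or in the plots.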

Additional observations from a re-analysis of the deposited data

Results flagged for a closer look

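Slc25a17, the peroxisomal carrier of coenzyme A, FAD and NAD, had injured libraries on opposite sides of their sham libraries in the 2 genotypes. It was at 90.6, 86.8 and 91.8 FPKM in WT sham and at 59.7, 64.8 and 80.8 in WT IRI, so every injured WT library lay below every WT sham library. It was at 94.3, 91.4 and 83.6 in CKO sham and at 106, 95.1 and 96.5 in CKO IRI, so every injured CKO library lay above every CKO sham library, the nearest by less than 1 FPKM. The fall in WT (0.40 ± 0.12, limma adjusted p = 0.027) lost its call in 6 of 17 alternatives (up to 0.0837), and the CKO change of 0.14 ± 0.12 did not pass (0.513). The interaction was 0.54 ± 0.17 on the log2(FPKM + 1) scale and did not pass (limma adjusted p = 0.194); over the alternatives its adjusted p ranged as low as 0.0291 with array weights and was 0.041 without WT IRI 49.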

How the results depend on the processing

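No member's called change reversed under any alternative run. In WT, 7 calls (Slc25a10, Slc25a15, Slc25a16, Slc25a21, Slc25a24, Slc25a42 and Ucp2) were kept in all 17 alternatives, and in CKO those of Slc25a24 and Ucp2 were. The 4 rises in WT became 2 under trimmed-mean scaling (18% of all genes) and 2 to 5 on leaving out 1 library (2 without WT sham 1, WT sham 2 or WT IRI 24, where 18.1%, 17.6% and 21.7% of all genes rose). The 12 falls in WT became 7 when only the compared groups were fitted (9.99% of all genes) and 5 to 14 on leaving out 1 library (7 without WT sham 2, 5 without WT sham 3, against 7.27% and 7.34%). The 4 rises in CKO became 2 to 4 (2 without CKO IRI 7, CKO sham 2 or CKO sham 3, against 2.74%, 2.74% and 2.66%). The 0 falls in CKO became 1 under quantile normalization (2.37% of all genes), 1 under trimmed-mean scaling (2.06%), 1 with only the compared groups (0.826%), 2 with array weights (10.2%), 0 to 1 on leaving out 1 library (1, Slc25a29, without CKO IRI 15, against 3.01%) and 2 without WT IRI 49 and CKO IRI 15 together (5.49%). Over both genotypes, the 5 rises became 8 with array weights (32.1% of all genes), and the 7 falls became 13 with array weights (18.1%) and 12 without those 2 libraries (15.4%). After IRI, the 0 carriers higher in CKO became 6 with array weights in a fit that also took in the sham libraries (2.57%). For the interaction, 0 became 5 with array weights (2.78%), 0 to 4 on leaving out 1 library (4 without WT IRI 49, against 2.5%) and 2 without both libraries (0.982%). The cause of these shifts was not tested. With the shared sham numbers as a replicate block, 0 rose and 0 fell in CKO sham against WT sham. Same-numbered libraries correlated at 0.00, -0.03 and 0.00, which cannot settle whether they share more than a number. Read depth is unknown, so counting error could not be set apart from the spread between libraries.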
